A study of Caenorhabditis elegans with 24 samples.

Results

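The left end of the X chromosome was taken as every 10 kb bin of X that starts below 4 Mb of the ce11 build, from the left telomere at chrX:1 to chrX:4000000. These were 400 of the 10032 bins of the deposited table, and 400 of the 1772 bins of X. The bins were chosen by position alone. Emerin contacts were mapped by DamID in body wall muscle, as the sample labels name the tissue, of L3/L4 larvae of Caenorhabditis elegans. Each strain carried 1 of 2 Dam fusions. Dam-EMR is the bacterial adenine methylase Dam fused to the emerin EMR-1, a protein of the inner nuclear membrane, and GFP-Dam is a freely diffusing nuclear fusion used as the accessibility control. Each fusion was combined with 4 backgrounds: a GFP-tagged lamin with the Y59C substitution in the cec-4(ok3124) mutant (Y59C cec-4), the same lamin with cec-4 intact (Y59C), wild-type GFP::LMN-1 in the cec-4 mutant (GFP::LMN-1 cec-4), and wild-type GFP::LMN-1 with cec-4 intact (GFP::LMN-1). All animals, controls included, carried a GFP-tagged lamin, an uninduced hsp-16.41 heat-shock promoter in front of Dam, and a recombinase driven by the muscle promoter myo-3 that switches the fusion on. Each of the 8 groups had 3 libraries, and all strains were grown side by side in each of the 3 rounds. Dam methylates adenine in GATC wherever the fusion comes close to DNA, and reads of methylated fragments record that proximity, not expression, so tissue markers could not be used to check the labelled tissue.

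LMN-1 is the single lamin of C. elegans and forms, with emerin and other membrane proteins, the layer that heterochromatin touches at the nuclear edge. CEC-4 is a chromodomain protein at that edge which binds histone H3 methylated on lysine 9 and tethers the chromatin that carries it. In embryos of this worm the autosome arms are known for such contacts, whereas most of X is known to lie away from the edge, its left end being the stretch known to touch it.

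The libraries differed widely in depth. Nuclear reads ran from 34946 to 6163102 in the 12 Dam-EMR libraries and from 2726612 to 19412314 in the 12 GFP-Dam libraries. The left end of X held 1121 to 211843 of these reads in the Dam-EMR libraries and 94399 to 673283 in the GFP-Dam libraries. Both lows of Dam-EMR come from replicate 3 of Y59C, where 37.25% of the left X bins had no read. Over the other libraries the share of empty left X bins was 1.25% to 22.25% with Dam-EMR, and it was 0.25% to 2.25% with GFP-Dam. Counting error is therefore much larger for Dam-EMR at 10 kb than in sums over 500 kb.

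The left end of X had fewer reads per bin than the rest of X with both fusions, and fewest at its tip, while its level was near that of the autosomes. The log2 read level of its 500 kb steps, minus that of the other X steps, had a lowest value of -0.92, a median of -0.76 and a highest value of -0.45 in the Dam-EMR libraries. In the GFP-Dam libraries the same difference had a lowest value of -0.86, a median of -0.81 and a highest value of -0.72. All 24 libraries were below 0, and the ranges of both fusions overlapped. The mean was -0.73 ± 0.15 with Dam-EMR and -0.80 ± 0.05 with GFP-Dam (SD, n = 12 each). For each fusion the exact two-sided sign-flip test gave p = 0.000488, the smallest that 12 libraries can give, and 0.000732 after Benjamini-Hochberg adjustment over 6 such tests. These tests treat the libraries of 1 round as independent, and over the 3 round means the smallest exact p would be 0.25. Against the autosomes the log2 level of the left end differed by -0.05 ± 0.09 with Dam-EMR (SD, n = 12; exact sign-flip test, adjusted p = 0.0527) and by 0.03 ± 0.05 with GFP-Dam (SD, n = 12; exact sign-flip test, adjusted p = 0.102). Read levels also depend on how many GATC fragments a step holds and how well they map, and the part of these in the level was not tested.

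Within the left end, the read level was lowest in the step at the tip (step 1, chrX:1-500000), at -2.19 with Dam-EMR and -2.49 with GFP-Dam relative to the mean of the rest of X. It was also low in step 4 (chrX:1500001-2000000), at -1.75 with Dam-EMR and -2.12 with GFP-Dam. It reached 0.41 with Dam-EMR and 0.47 with GFP-Dam in step 8 (chrX:3500001-4000000), above the mean of the rest of X. Both fusions thus had their 2 lowest steps in the same places, 1.5 Mb apart, and their highest in the step nearest the border. The log2 level of the tip minus the mean of the other 7 steps was -1.67 ± 0.39 with Dam-EMR and -1.93 ± 0.09 with GFP-Dam (SD, n = 12 each), in 12 of 12 libraries of each fusion (sign-flip test as above, exact, adjusted p = 0.000732 each).

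**Figure D1:**
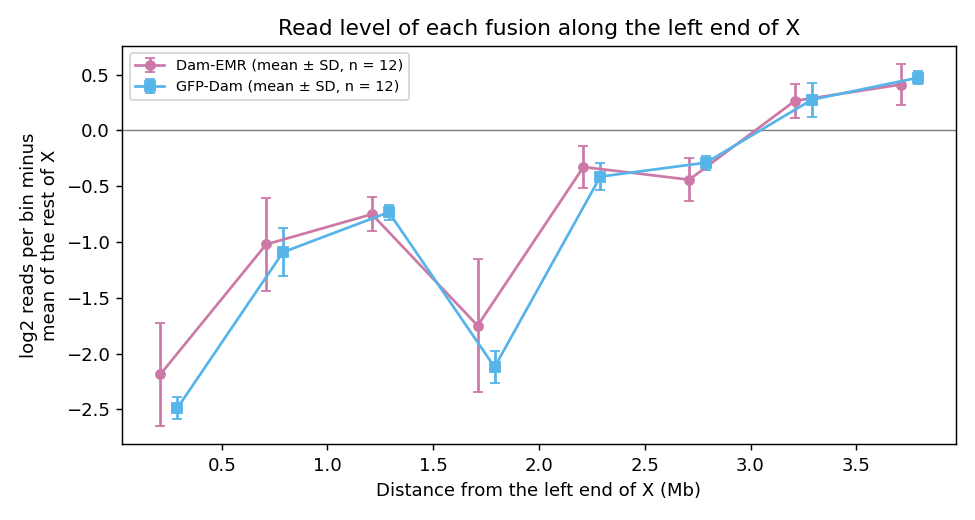
Log2 reads per bin minus the mean of the rest of X (y axis) against distance from the left end of X in Mb (x axis), for the 8 steps of 500 kb. Points are means and bars SD over the 12 Dam-EMR libraries (circles) and the 12 GFP-Dam libraries (squares). Both fusions dip at the tip, to -2.19 and -2.49, and again in step 4, to -1.75 and -2.12.

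Dam-EMR contact was read as the log2 ratio of Dam-EMR to GFP-Dam, each Dam-EMR library being set over the GFP-Dam library that shared its background and round. Over the 12 pairs, the difference between the left end of X and the rest of X was within the spread between pairs. The difference in log2 ratio had a lowest value of -0.20 in GFP::LMN-1 cec-4 replicate 2 and a highest value of 0.40 in Y59C cec-4 replicate 1, and it was above 0 in 7 of 12 pairs. Its mean was 0.07 ± 0.17 (SD, n = 12; exact two-sided sign-flip test, p = 0.171, also 0.171 after adjustment over 3 tests). Round 1 was the high round: the mean was 0.22 ± 0.18 in round 1, -0.05 ± 0.13 in round 2 and 0.04 ± 0.10 in round 3 (SD, n = 4 each). Without round 1 the mean over the remaining pairs was -0.00153, and with reads summed over each region in place of means over steps it was -0.05.

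Set against the autosomes, the left end of X had a slightly lower Dam-EMR ratio. The difference lay between -0.21 and 0.06 and was below 0 in 10 of 12 pairs, with Y59C replicate 3, the shallowest library, at the top. It averaged -0.08 ± 0.08 (SD, n = 12; p = 0.00439 by the same exact test, and 0.0132 after adjustment). It was -0.11 ± 0.11 in round 1, -0.07 ± 0.03 in round 2 and -0.06 ± 0.08 in round 3 (SD, n = 4 each). The call treats pairs of 1 round as independent. With the replicate block, as a sign-flip over the 3 round means, p was 0.25, the smallest that 3 rounds can give. The difference was 0.04 (p = 0.438, exact) with summed reads, and -0.04 (p = 0.203, exact) with the border at 3 Mb. The low ratio was not particular to the left end. In edgeR the median log2 ratio of the 500 kb steps was -0.12 in the rest of X. It was -0.04 in the left end and 0.02 over all steps of the genome.

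The tip step had a higher Dam-EMR ratio than the other 7 steps in 7 of 12 pairs, with values from -0.17 to 1.11. The mean difference was 0.26 ± 0.40 (SD, n = 12), which did not pass after adjustment (p = 0.0376 by the same exact test, and 0.0564 after adjustment). The 2 highest pairs were Y59C cec-4 replicate 1 at 1.11 and Y59C replicate 1 at 0.78. The mean was 0.55 ± 0.50 in round 1, 0.10 ± 0.23 in round 2 and 0.13 ± 0.34 in round 3 (SD, n = 4 each), and 0.12 (p = 0.258, exact) over the pairs of rounds 2 and 3 together. This is also the step with the fewest reads, and the part of low counts in the ratio was not tested.

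**Figure D2:**
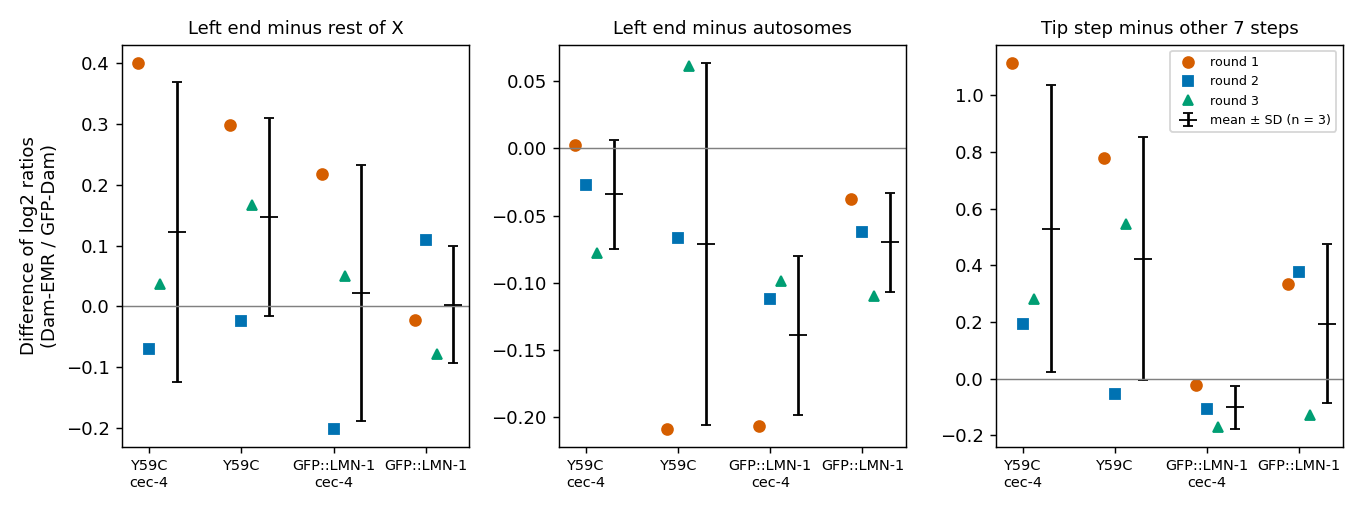
Differences of log2 ratios of Dam-EMR to GFP-Dam (y axis; the scale differs between panels) in the 4 backgrounds (x axis): left end minus rest of X, left end minus autosomes, and tip step minus the other 7 steps. Points are single pairs by round, and bars are mean ± SD (n = 3). Round 1 is the highest of the 3 rounds for the left end minus rest of X in every background but GFP::LMN-1.

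Along the 8 steps, the averaged Dam-EMR ratio was above 0 in steps 1 and 4 and below 0 in step 6 (chrX:2500001-3000000), and no step passed in edgeR or limma. In edgeR's quasi-likelihood fit to all 201 steps of the genome, 0 of 8 left X steps had a Benjamini-Hochberg adjusted p below 0.05, against 18.9% of all steps (10.4% higher and 8.46% lower), and 2 of 8 had an unadjusted p below it. DESeq2 called 1 of 8, step 6, and limma 0. The log2 ratio was 0.36 ± 0.17 in step 4 (SE; adjusted p = 0.115 in edgeR), 0.24 ± 0.12 in step 1 (0.165) and -0.22 ± 0.08 in step 6 (0.0561). The other 5 steps lay between -0.12 and 0.02. Step 6 was the one near the threshold: with the replicate block its edgeR adjusted p was 0.0324 at a log2 ratio of -0.22, and with library totals alone 0.0349 at -0.24, while without round 1 it was 0.206 at -0.09. Step 6 was also called without Y59C cec-4 replicate 2.

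The profile differed between rounds. Centred on the median step of each pair, step 4 had a mean ratio of 0.85 in round 1, -0.02 in round 2 and 0.09 in round 3. Step 1 had 0.54 in round 1, 0.05 in round 2 and 0.12 in round 3, and step 2 had 0.44, -0.32 and -0.11 in rounds 1, 2 and 3. At the other end of the region the order turned: step 8 had -0.44 in round 1, 0.09 in round 2 and -0.02 in round 3, and step 7 had -0.35, 0.13 and -0.01. Step 6 had -0.47, -0.09 and -0.10 in rounds 1, 2 and 3, and step 3 had -0.16, -0.04 and -0.05. Round 1 was thus above rounds 2 and 3 in steps 1, 2 and 4, and below them in steps 3, 6, 7 and 8. Without round 1 the edgeR log2 ratio was 0.07 for step 1 and 0.04 for step 4.

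The ratio ran against the read level along the region in round 1. The level was the log2 GFP-Dam level of a step averaged over all GFP-Dam libraries. Over the 8 left X steps, Pearson's r between this level and a pair's ratio was -0.70 to -0.90 in the 4 pairs of round 1. It was -0.63 to 0.63 in the 8 pairs of rounds 2 and 3. Steps of a pair share 2 libraries, and the averaged level includes the GFP-Dam library in the ratio's denominator, so these values are a description only. The part of the read level in the ratio was not tested.

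**Figure D3:**
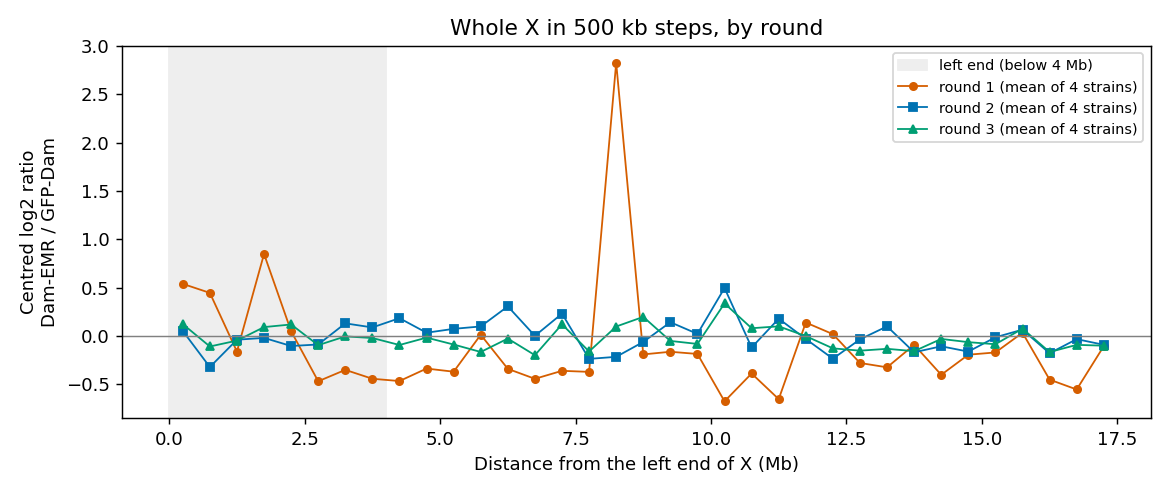
Centred log2 ratio of Dam-EMR to GFP-Dam (y axis) in steps of 500 kb along the whole X (x axis, Mb from the left end), as the mean of the 4 backgrounds in each round. The shaded span is the left end. Round 1 reaches 0.85 in step 4 and -0.47 in step 6, and has a peak of 2.83 outside the left end, near 8 Mb, that rounds 2 and 3 lack.

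In the rest of X the step chrX:8000001-8500000 had a centred ratio of 2.83 in round 1, -0.22 in round 2 and 0.10 in round 3. It contains 1 of the 2 bins of the rest of X that took over 0.5% of the reads in at least 1 library, and the left end had 0 such bins. Without such bins the left end minus the rest of X was 0.12 (exact sign-flip test, p = 0.0874). Within the left end, the SD over the 8 steps of a pair was 0.18 to 0.87 in round 1, 0.18 to 0.25 in round 2 and 0.10 to 0.28 in round 3.

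At the tip step the values of Y59C cec-4 and GFP::LMN-1 cec-4 did not overlap, and those of every other pair of backgrounds did. The centred ratio of step 1 was 1.21, 0.16 and 0.23 in rounds 1, 2 and 3 of Y59C cec-4, and 0.67, -0.11 and 0.59 in those of Y59C. It was -0.02, -0.21 and -0.17 in GFP::LMN-1 cec-4, and 0.29, 0.37 and -0.17 in GFP::LMN-1. All 3 values of Y59C cec-4 were above 0 and all 3 of GFP::LMN-1 cec-4 below it, while Y59C and GFP::LMN-1 had both signs. In step 4 the single highest value, 1.70, was round 1 of Y59C cec-4, whose other rounds were at -0.25 and 0.09. No left X step was called in any background or between any pair of backgrounds compared, nor by DESeq2 or limma (edgeR, Benjamini-Hochberg adjusted over 201 steps; background 0.498% of steps in Y59C and 0.0% in each other case). At an unadjusted p below 0.05 there was 1 left X step in Y59C cec-4, the tip (log2 ratio 0.56 ± 0.25, SE; edgeR adjusted p = 0.512), and 0 in each other background and each comparison of backgrounds. The median SE of a left X step between Y59C and GFP::LMN-1 was 0.28. Only differences well above that size could pass, so 0 calls do not exclude smaller ones.

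**Figure D4:**
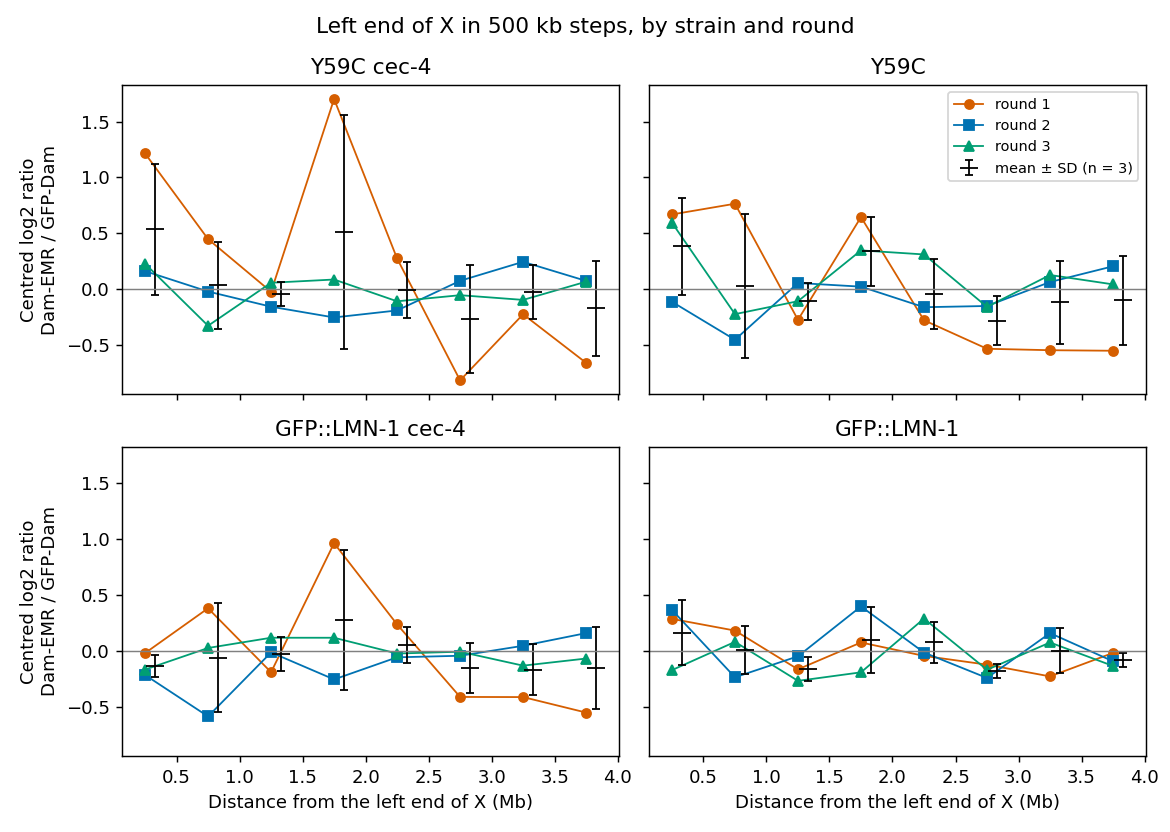
Centred log2 ratio of Dam-EMR to GFP-Dam (y axis) in the 8 steps of 500 kb (x axis, Mb from the left end), in 1 panel for each background. Coloured points are the 3 rounds, and black bars are mean ± SD (n = 3). Round 1 stands away from rounds 2 and 3 in Y59C cec-4, Y59C and GFP::LMN-1 cec-4, with values up to 1.70, and stays within -0.23 to 0.29 in GFP::LMN-1.

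The design asks whether the mutant lamin or the loss of cec-4 moved the left end of X relative to the rest of X, and no such difference was larger than the spread between pairs. The left end minus the rest of X averaged 0.15 ± 0.16 in Y59C and 0.00 ± 0.10 in GFP::LMN-1 (SD, n = 3 each), a difference of 0.14 (exact permutation test, two-sided, p = 0.3). It averaged 0.12 ± 0.25 in Y59C cec-4 and 0.15 ± 0.16 in Y59C, a difference of -0.02 (exact permutation test, p = 0.9). The ranges of the backgrounds overlapped in each comparison. It averaged 0.02 ± 0.21 in GFP::LMN-1 cec-4 and 0.00 ± 0.10 in GFP::LMN-1, a difference of 0.02 (exact permutation test, p = 1). Between Y59C cec-4 and GFP::LMN-1 the difference was 0.12 (exact permutation test, p = 0.6). All 4 adjusted values were 1, and 3 pairs against 3 cannot give a p below 0.1.

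At 10 kb, 386 of the 400 left X bins had enough reads to be tested over the 4 backgrounds together. Called bins were few: 11 of 386 (2.85%) passed in edgeR at a Benjamini-Hochberg adjusted p below 0.05, close to the 3.09% of all 9735 tested bins. Of these, 3 were higher with Dam-EMR, against a background of 1.29%, and 8 were lower, against 1.8%. In the rest of X 8 bins were higher and 27 lower of 1363. The median log2 ratio was -0.08 over the left X bins and -0.07 over all bins. The count changed with the processing and with single rounds. With DESeq2's size factors in edgeR 7 of the 11 remained, 3 higher and 4 lower, and with the replicate block 7 remained, 1 higher and 6 lower. DESeq2 itself called 33 bins, 15 higher and 18 lower, with 9 of the 11 among them. Its share of all tested bins is not given, so this count is not set against the genome. limma on pair ratios called 0. Without round 2 and without round 3 edgeR called 0, and without round 1 it called 16, of which 6 were among the 11. Without GFP::LMN-1 replicate 2 it called 1 bin and without GFP::LMN-1 replicate 3 it called 2, all among the 11. Without GFP::LMN-1 cec-4 replicate 1 it called 4, of which 3 were among the 11, and without Y59C cec-4 replicate 3 it called 4, all among them. Without Y59C cec-4 replicate 1 or 2 it called 7 each, with 5 and 6 of the 11 among them.

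**Figure D5:**
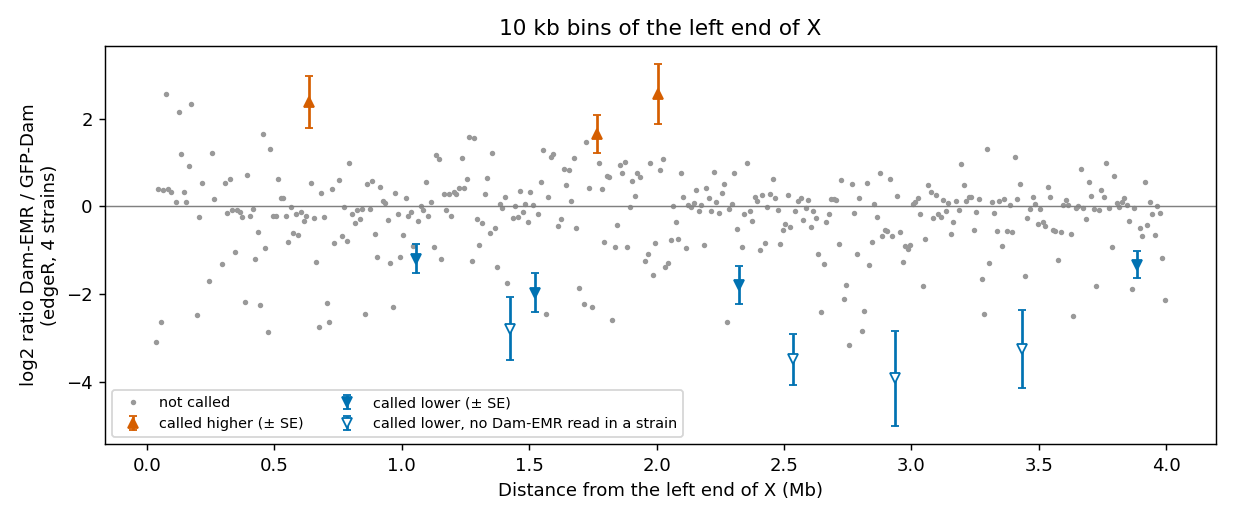
Log2 ratio of Dam-EMR to GFP-Dam over the 4 backgrounds (y axis, edgeR) of the 386 tested bins of 10 kb against distance from the left end of X in Mb (x axis). Triangles are the 3 bins called higher and the 8 called lower, with bars of ± SE, and dots are bins not called. Open triangles mark bins without a Dam-EMR read in at least 1 background, whose fitted value shows direction only. The called bins lie apart from each other along the region.

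Among the bins called higher, both that were above 0 in at least 10 of 12 pairs hold no protein-coding gene. The bin chrX:1760001-1770000 had 3.51 (lowest), 72.2 (median) and 387 (highest) CPM (reads scaled by the nuclear total of the library) in the Dam-EMR libraries, against 16.5, 39.9 and 48.7 in the GFP-Dam libraries. The Dam-EMR range enclosed the GFP-Dam range, and the ratio was above 0 in 11 of 12 pairs. Its log2 ratio was 1.65 ± 0.44 (SE; edgeR adjusted p = 0.0396), with a mean over pairs of 1.94 in round 1, 1.69 in round 2 and 0.36 in round 3. The bin chrX:2000001-2010000 had 0, 8.79 and 227 CPM with Dam-EMR, against 1.27, 3.84 and 14.3 with GFP-Dam, from 403 and 438 reads in all. It was above 0 in 10 of 12 pairs, and edgeR gave a log2 ratio of 2.56 with an SE of 0.68 (adjusted p = 0.0413). With the replicate block its edgeR adjusted p was 0.0850, and without round 1 the log2 ratio was 0.89 (edgeR adjusted p = 0.515).

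Another bin, chrX:630001-640000, was called but had the sign in 7 of 12 pairs, and it is named here after its values were seen. It holds pha-2 (chrX:633368-636993), a homeobox gene of pharynx development, and the end of M6.4. The Dam-EMR libraries had 5.49, 35.3 and 731 CPM (lowest, median, highest), against 19.4, 28.9 and 34.0 with GFP-Dam. The mean pair ratio was 3.73 in round 1, -0.15 in round 2 and 0.02 in round 3, so round 1 alone was far above 0. Its log2 ratio was 2.37 ± 0.59 (SE; edgeR adjusted p = 0.0300), and -0.28 (edgeR adjusted p = 0.734) without round 1. The next 2 bins by p, chrX:170001-180000 over T08D2.5 and T08D2.4 and chrX:3290001-3300000 over K09C4.4 and K09C4.2, did not pass (edgeR adjusted p = 0.0739 and 0.0844).

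Of the 8 bins called lower, 5 were below 0 in at least 10 of 12 pairs. The bin chrX:1520001-1530000, reached by one end of toca-1 (chrX:1510471-1521487), a gene of membrane bending and endocytosis, had 0 (lowest), 12.8 (median) and 24.6 (highest) CPM with Dam-EMR, against 22.03, 35.97 and 73.6 with GFP-Dam. The bin chrX:2320001-2330000, which no protein-coding gene overlaps, had 1.61, 9.02 and 28.6 with Dam-EMR, against 23.0, 29.3 and 38.9 with GFP-Dam. In both bins all 12 pairs were below 0. The ranges of both fusions overlapped at their edges in the toca-1 bin, and in the other the highest Dam-EMR library came near the GFP-Dam median. The log2 ratio was -1.96 ± 0.45 in the toca-1 bin (SE; edgeR adjusted p = 0.0233) and -1.79 ± 0.43 in the other (SE; edgeR adjusted p = 0.0279). The 12 Dam-EMR libraries together held 277 reads in the toca-1 bin and 187 in the other.

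The bin chrX:3880001-3890000 lies inside F47F2.1 (chrX:3878571-3893311) and had 13.5, 33.3 and 62.96 CPM with Dam-EMR, against 50.8, 74.7 and 196 with GFP-Dam. It was below 0 in 11 of 12 pairs, and edgeR gave a log2 ratio of -1.33 with an SE of 0.31 (adjusted p = 0.0259). The bin chrX:1050001-1060000 holds ncs-3 (chrX:1054081-1056846), of the neuronal calcium sensor family, and part of unc-1 (chrX:1057487-1062453), a stomatin-like protein that acts on gap junctions. It had 4.18, 37.7 and 75.5 CPM with Dam-EMR, against 43.6, 72.9 and 133 with GFP-Dam, and was below 0 in 10 of 12 pairs. Its log2 ratio was -1.19 ± 0.33 (SE; edgeR adjusted p = 0.0438), with a mean pair ratio of -0.02 in round 1, -1.22 in round 2 and -1.87 in round 3. With the replicate block its edgeR adjusted p was 0.0514.

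The bin chrX:2530001-2540000 carries the end of tbc-12 (chrX:2525191-2532457), which encodes a predicted GTPase-activating protein for Rab proteins, and had the smallest p of the region (edgeR adjusted p = 0.00339). It had 0, 14.9 and 48.5 CPM with Dam-EMR, against 26.0, 42.1 and 75.6 with GFP-Dam, and 11 of 12 pairs were below 0. The 3 other bins called lower were below 0 in 8 or 9 of 12 pairs and are named after their values were seen: chrX:2930001-2940000 over fard-1, a fatty acyl-CoA reductase, chrX:3430001-3440000 at the end of ZK813.4, and chrX:1420001-1430000 over F19G12.3 and F19G12.11. These 4 bins had no Dam-EMR read in Y59C, and the fard-1 bin had none in Y59C cec-4 either, so their fitted averages are not given.

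In single backgrounds, called left X bins occurred in Y59C, where 7 were lower and 0 higher, against a background of 0.955% of all tested bins in either direction, 0.894% lower and 0.0616% higher. In Y59C cec-4, GFP::LMN-1 cec-4 and GFP::LMN-1 edgeR called 0 left X bins and 0.0% of all bins, with 41, 14 and 11 left X bins at an unadjusted p below 0.05. DESeq2 called 31 in Y59C, 6 in Y59C cec-4 and 0 in the other 2, and limma called 0 in every background. Shares of all tested bins are not given for DESeq2 or at an unadjusted p, so those counts say nothing particular to the left end. With DESeq2's size factors in edgeR 1 of the 7 remained, and with library totals alone 2. Each round had to be present: without round 1, 2 or 3 edgeR called 0 in Y59C, and without the shallow Y59C replicate 3 it called 14, including all 7. Without Y59C replicate 1 it called 5, with 2 of the 7 among them, and without Y59C replicate 2 it called 1, which was none of the 7. The count was 1 without GFP::LMN-1 replicate 2, and 2 without Y59C cec-4 replicate 3. It was 3 without GFP::LMN-1 cec-4 replicate 1 or 3, and 4 without GFP::LMN-1 replicate 3. All backgrounds were fitted together, and the cause of these changes was not tested. The scaling moved the median of all bins in Y59C by 0.21 on the log2 scale, to 0.01 with DESeq2's size factors against -0.20 with edgeR's.

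These 7 bins had 0 to 7 Dam-EMR reads in each Y59C library. The fard-1 and ZK813.4 bins, also without a Dam-EMR read in Y59C, were not among the 7. In the tbc-12 bin the 3 Y59C pairs had 0, 0 and 0 Dam-EMR reads, against 683, 453 and 286 GFP-Dam reads, which put Dam-EMR at least 46.4-fold lower in CPM when 3 reads are allowed over the group. Such bounds cover counting error only, and amplified reads are not independent molecules. They pool the Dam-EMR libraries of Y59C, with 536964, 2587500 and 34946 nuclear reads in replicates 1, 2 and 3. They therefore rest mostly on replicate 2, and 0 reads in replicate 3 say little. The bins at chrX:2270001-2280000 over AH9.4, at chrX:1420001-1430000 and at chrX:850001-860000 over igcm-1 and F56F10.2 also had 0 Dam-EMR reads in all 3, which is at least 25.6-fold, 24.2-fold and 21.3-fold lower on the same terms. The bin chrX:1980001-1990000 over meg-3, a scaffold protein of germ granules, had 1, 0 and 0 Dam-EMR reads, against 776, 294 and 359 GFP-Dam reads. In the same bin the Y59C cec-4 libraries had 33, 193 and 66 Dam-EMR reads. The remaining bins were chrX:340001-350000 over C04E7.3, with 1, 7 and 0 Dam-EMR reads, and chrX:2980001-2990000 over aakg-3, nspg-5 and osm-5, the last a subunit of intraflagellar transport, with 4, 6 and 2.

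Between backgrounds the calls depended on the tool: edgeR and limma gave none in the left end and DESeq2 gave some. edgeR called 0 of 386 in Y59C against GFP::LMN-1 (background 0.0205%), in Y59C cec-4 against Y59C, in GFP::LMN-1 cec-4 against GFP::LMN-1 and in Y59C cec-4 against GFP::LMN-1 (background 0.0% each). At an unadjusted p below 0.05 there were 43, 49, 6 and 20 in that order. DESeq2 called 6, 16, 0 and 0 in the same order, and limma 0 in each. Here and for the interaction below, shares of all tested bins are not given for DESeq2 or at an unadjusted p. Such counts are therefore not set against the genome. Without Y59C replicate 3 edgeR called 2 in Y59C against GFP::LMN-1 and 4 in Y59C cec-4 against Y59C, where leaving out Y59C replicate 1 also gave 4 and GFP::LMN-1 cec-4 replicate 2 gave 2. The bin of smallest p was the tbc-12 bin for Y59C against GFP::LMN-1 (edgeR adjusted p = 0.0511), with 0, 0 and 0 Dam-EMR reads in Y59C and 42, 8 and 47 in GFP::LMN-1. For Y59C cec-4 against Y59C it was the meg-3 bin (edgeR adjusted p = 0.0516). For GFP::LMN-1 cec-4 against GFP::LMN-1 it was chrX:510001-520000 over B0310.3 (edgeR adjusted p = 0.99994). For Y59C cec-4 against GFP::LMN-1 it was chrX:1880001-1890000, which no protein-coding gene overlaps (edgeR adjusted p = 0.880). The median SE of a left X bin was 1.31 on the log2 scale in Y59C against GFP::LMN-1 and in Y59C cec-4 against Y59C. It was 1.24 in GFP::LMN-1 cec-4 against GFP::LMN-1 and 1.25 in Y59C cec-4 against GFP::LMN-1. With such an SE, differences of several fold at a single bin were not detectable in edgeR, and the parts of depth and of spread between replicates in the SE were not tested. The interaction of cec-4 and lamin also gave 0 calls in edgeR (background 0.0%), with 39 left X bins at an unadjusted p below 0.05, and 3 in DESeq2. The left X bins of GFP-Dam alone gave 0 calls in edgeR and DESeq2, and 0 in edgeR at an unadjusted p below 0.05, for Y59C against wild-type lamin (background 0.0103%) and for the cec-4 mutant against intact (background 0.0%). limma, on GFP-Dam alone, had 9 and 5 left X bins at an unadjusted p below 0.05. The edgeR fit was shared with the shallower Dam-EMR libraries, and its median SE of a left X bin was 0.61 in both comparisons. These 0 calls therefore do not show that GFP-Dam was unchanged.

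The sign of the ratio was counted over the 12 pairs in each tested bin. Of the 386 tested left X bins, 0 were above 0 in all 12 pairs and 3 were above 0 in none, while 71 were above 0 in exactly 6. The same shares over all tested bins are not given, so these counts are not set against the genome. The interquartile range of the 10 kb ratios over the left end was 1.07 to 3.50 log2 units in single pairs, with a median between -0.24 and 0.07.

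The left end of X holds 578 protein-coding genes, 14.5 per 100 kb, against 2152 and 15.7 per 100 kb in the rest of X. The tip step holds 52 and step 7 holds 86. It carries 30 miRNA genes, 0.75 per 100 kb, against 43 and 0.313 per 100 kb in the rest of X, but 33 tRNA genes, 0.825 per 100 kb, against 243 and 1.77. The genes of the 19 lists of tissue markers and gene families lie in 42 tested left X bins, of which edgeR called 0, beside 3.09% of all tested bins, so a count of 0 says little about the lists. Of the list of body wall muscle genes, 2 lie in the left end, unc-96 and unc-78. The gene unc-96 encodes a protein of the sarcomere's M-line (bin log2 ratio -0.33 ± 0.38, SE). The gene unc-78 encodes an actin-disassembly factor (0.17 ± 0.36). The intestinal yolk protein genes vit-3 and vit-4 share a bin at -0.56 ± 0.54, and vit-5 lies in one at 1.13 ± 0.46. Among neuronal genes, aex-3, a regulator of synaptic vesicle traffic, was in a bin at 0.60 ± 0.35 and unc-2, a calcium channel subunit, in one at -2.10 ± 1.18. None of these passed.

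Of the larger families, 11 of 328 F-box genes lie in the left end, and 9 of them in 7 tested bins with a median log2 ratio of 0.11. The 8 ceh homeobox genes, among them ceh-39, an X-linked signal of sex determination, lie in 6 tested bins with log2 ratios from -2.18 to 0.94. The ceh median was -0.18 over these bins and 0.23 over the genes, since some share a bin, so it had no steady sign. The 8 neuropeptide genes with flp, nlp or ins symbols, such as flp-18, lie in 6 bins from -1.81 to 0.09. Their median was -0.39 over the bins and -0.18 over the genes. Neuropeptide genes with other symbols were not in the list. The 6 listed genes of neuronal G-protein coupled receptors lie in a bin each, with a median of -0.36, beside -0.07 over all tested bins of the genome. The region holds 1 of the 1176 chemoreceptor genes whose symbol starts with sr, srh-19. Chemoreceptor genes of the str family were not in that list. Of these, str-79 lies in a left X bin at 0.98 ± 0.58 (SE; edgeR adjusted p = 0.356).

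The 14 left X bins that could not be tested lay mostly at the tip, with 9 in step 1, 1 in step 2 and 4 in step 4, the steps of lowest read level among them. The first 3 bins of the chromosome, chrX:1-30000, were among them with 6, 3 and 33 Dam-EMR reads and 140, 58 and 140 GFP-Dam reads over all libraries. The bin chrX:1940001-1950000, over fbxa-40, fbxa-41 and rgs-8.2, had 0 reads in all 24 libraries.

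In the authors' deposited table of log2 ratios per 100 kb, which averages the 3 replicates of a background, the 40 left X bins had a median below that of the whole genome in every background. In the authors' deposited table that median was -0.03 in Y59C cec-4, -0.04 in Y59C, -0.08 in GFP::LMN-1 cec-4 and -0.05 in GFP::LMN-1, relative to the genome's median. The same values for the other 138 X bins were -0.11, -0.14, -0.11 and -0.07. The highest single left X bin of the authors' deposited table was 2.24, in Y59C cec-4.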

How the data were processed

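Reads of 24 DamID libraries were analysed. Larvae fed Dam-minus bacteria grew for 26 h at 22.5 °C, and 200 ng of DNA was cut with DpnI for 6 h, per the labels' protocols. Mapped reads per 10 kb bin of ce11, per the submitters' processing notes, were deposited by the authors as raw counts. Gene positions are from WBcel235, the same assembly. Their log2 values per 100 kb, also deposited by the authors, equal the log2 of the mean of the 3 linear ratios of a background. The sources used here name no aligner or read filter. The design text names the intestine and the sample labels body wall muscle, and the labels were followed.

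Mitochondrial bins were left out. Reads were summed over steps of 500 kb with at least 25 bins, 1 read was added, and each library was scaled to its total. A pair is the Dam-EMR with the GFP-Dam library of 1 background and replicate number, and centred ratios have the pair's median step subtracted. The 12 pairs were tested by exact sign-flip and backgrounds by exact permutation. Counts per bin and per step were fitted with edgeR 4.0.16 (TMM, quasi-likelihood, filterByExpr, 8 groups in 1 fit) in R 4.3.3, with DESeq2 1.42.0 and limma 3.58.1 as alternatives, and p-values were adjusted over all features by Benjamini-Hochberg. The fits were tested on simulated data: most large changes were recovered in the average over backgrounds, with a few false calls, but few between 2 backgrounds, where the recovery first required was missed and then dropped, so 0 calls between backgrounds says little about differences at single bins.

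The members and lists were chosen with earlier results of these data known. Named bins are those called over the 4 backgrounds, up to 8 a direction with the sign in at least 10 of 12 pairs, filled to 4 by p, and for each comparison of backgrounds the bin of smallest p. The replicate numbers mark rounds grown in parallel, per the series' design text. Deviations from the group mean correlated with a median of 0.09 within a round and -0.05 across rounds for Dam-EMR, and 0.51 and -0.26 for GFP-Dam. Since the deviations of a group sum to 0, the values across rounds follow from those within and are not separate evidence. Between the Dam-EMR and GFP-Dam libraries of 1 background the median was -0.000924 within a round and -0.01 across rounds.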

Additional observations from a re-analysis of the deposited data

Results flagged for a closer look

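The tip step of X (chrX:1-500000) went opposite ways in 2 backgrounds. Its centred log2 ratio of Dam-EMR to GFP-Dam was above 0 in all 3 pairs of Y59C cec-4 (mean 0.54) and below 0 in all 3 pairs of GFP::LMN-1 cec-4 (mean -0.13), a difference of 0.67. The tip step minus the other 7 left X steps behaved likewise, with a mean of 0.53 in Y59C cec-4 and -0.10 in GFP::LMN-1 cec-4, a difference of 0.63. These differences were picked for their signs and were not tested. The Y59C cec-4 mean rests on round 1, at 1.21, with the other rounds at 0.16 and 0.23.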

How the results depend on the processing

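Of 413 alternative values of 19 results, 339 were labelled the same. For a tested difference this means that it kept its direction and its side of the threshold. For a count of calls it means an equal or similar count, whatever the direction, and most such counts stayed at 0. For the left end minus the rest of X the value was -0.0480 with summed reads, and -0.00153 to 0.13 when single pairs or rounds were left out. For the left end minus autosomes it was -0.0920 with means of 10 kb bins, 0.0424 with summed reads, -0.0423 with the border at 3 Mb, -0.0786 with the replicate block, and -0.0913 to -0.0617 with libraries left out. For the tip it was 0.49 with means and 0.47 with medians of 10 kb bins, 0.26 with the replicate block, and 0.12 to 0.34 with libraries left out. Between backgrounds, Y59C against GFP::LMN-1 was -0.00514 with summed reads (0.0556 to 0.284 with libraries left out), Y59C cec-4 against Y59C 0.00799 with the border at 5 Mb (-0.164 to 0.0720), and Y59C cec-4 against GFP::LMN-1 -0.0248 with summed reads (-0.0319 to 0.270). GFP::LMN-1 cec-4 against GFP::LMN-1 was -0.102 with means and -0.0551 with medians of 10 kb bins, -0.0159 with summed reads and -0.0288 with the border at 5 Mb (-0.0912 to 0.185). Called 10 kb bins over the 4 backgrounds, 11, became 7 with DESeq2's size factors, 7 with the replicate block, 33 with DESeq2 and 0 with limma (0 to 16 with libraries left out). In Y59C the 7 became 1, 2 with library totals alone, 31 with DESeq2 and 0 with limma (0 to 14). DESeq2 gave 6 in Y59C cec-4, 6 in Y59C against GFP::LMN-1 (0 to 2) and 16 in Y59C cec-4 against Y59C, where no filter gave 2 (0 to 4). Shares of all tested bins under DESeq2 are not given. The count of 500 kb steps, 0, became 1 with library totals alone, with the replicate block and with DESeq2 (0 to 1). Among the other counts of calls, the replicate block changed only that of Y59C, from 7 to 5. For the left end minus autosomes, the exact sign-flip test over 3 rounds cannot give a p below 0.25. That difference therefore did not pass with the replicate block. The cause of these changes was not tested. Depth limits the 10 kb values most in Y59C replicate 3, with 34946 nuclear reads.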
